A study of Mus musculus with 24 samples.

Results

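The eukaryotic translation initiation factors are the proteins that bring the initiator tRNA, the mRNA and the small ribosomal subunit together at a start codon. Their genes were taken as all rows of the total and nascent RNA tables whose symbol begins with Eif and a digit between 1 and 6, without pseudogene rows, rows of merged symbols and the Y-linked copy of Eif2s3x. This gave 55 members among 52323 rows, and 8 rows with such symbols were left out. The members were sorted by role into eIF2 and initiator tRNA delivery (5), the exchange factor eIF2B (5), the eIF2 kinases (4), start codon choice and subunit joining (7), eIF3 (14), cap binding and the eIF4F complex (12), the eIF4E inhibitors (4), and eIF5A with eIF6 (3). Eif1ad and Eif4a3 stand with the genes of like symbol, in the start codon and eIF4F groups, and these group names do not give their function. The remaining member, Eif2c5, is annotated as a long intergenic RNA on the X chromosome and not as a protein-coding gene.

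The cells came from testes of wild-type NMRI mice whose spermatogenesis had been synchronised with WIN18,446, which blocks the making of retinoic acid, and then retinoic acid. Every mouse, at 24 days after birth, had received 2 mg of 5-ethynyl uridine (EU), which is built into new RNA, 3 hours before it was killed. Cells were then sorted by DNA content, and all groups therefore share the synchronisation and the EU label. Each assay holds 12 libraries: 3 of spermatogonia from 2 animals, 1 of preleptotene spermatocytes, 4 of leptotene spermatocytes from 3 animals and 4 of pachytene spermatocytes from 2 animals. Total RNA was depleted of ribosomal RNA, while nascent RNA, captured through its EU, was sequenced without depletion. The animals carry different numbers in the 2 assays, so a total and a nascent library never share an animal by label.

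As background, initiation starts when eIF2 carries the initiator methionyl tRNA to the small subunit, helped by eIF3, eIF1 and eIF1A. eIF4F, made of the cap binder eIF4E, the scaffold eIF4G and the helicase eIF4A, brings in the mRNA, and eIF5 and eIF5B complete the joining of the large subunit. eIF2 is recharged with GTP by eIF2B, and kinases that phosphorylate eIF2 turn it into an inhibitor of eIF2B, while eIF4E-binding proteins block eIF4F. Male germ cells are known to store and delay many mRNAs and to keep several germ-line forms of these factors.

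The libraries gave at least 1 FPKM for 11988 to 14861 genes in total RNA and 8357 to 12332 in nascent RNA. Read depth could not be recovered from the FPKM values. Leptotene library 2 of both assays stood apart from its label. Its Spearman correlation across genes with the pachytene libraries was 0.87 to 0.90 in total RNA and 0.75 to 0.86 in nascent RNA, against 0.53 to 0.57 and 0.59 to 0.63 with the other leptotene libraries. The summed level of 8 pachytene markers in total RNA was 1586 to 2042 FPKM in pachytene libraries, 1385 FPKM in leptotene library 2 and 70.4 to 101.6 FPKM in the other leptotene libraries. Leptotene library 3 correlated with spermatogonia at 0.74 to 0.85 in total RNA and 0.77 to 0.86 in nascent RNA. With the other leptotene libraries it reached 0.53 to 0.85 and 0.59 to 0.78, lowest with library 2 in both assays. It thus lay nearer to spermatogonia in nascent RNA, while in total RNA it was about as near to its own stage. Member calls that use leptotene cells, and their counts, are therefore given with and without library 2. By label, leptotene libraries 1 and 2 share an animal in each assay, and the tests average libraries per animal. Without library 1, library 2 thus stands alone for that animal. Its part in the calls lost without library 1 was not tested. Medians, the interaction and the list of genes around initiation include library 2. Of 24 markers of somatic testis cells, 20 to 21 reached 1 FPKM in spermatogonia libraries in total RNA, 4 to 14 in leptotene and 1 to 3 in pachytene. Their summed level was 471 to 858 FPKM in spermatogonia, 12.8 to 55.2 in leptotene and 10.8 to 13.6 in pachytene libraries, and in nascent RNA 182 to 281, 5.12 to 10.8 and 3.78 to 9.43 FPKM. The Sertoli marker Rhox5 was at 0 in every pachytene library of both assays. Of 5 Leydig markers tested in total RNA, 4 fell and 0 rose in pachytene against spermatogonia. The Leydig marker Star went the other way in its values. It had 7.22, 6.89, 4.10 and 7.08 FPKM in pachytene against 4.58, 3.51 and 4.57 FPKM in spermatogonia in total RNA. Star was the largest single part of the summed level in pachytene total RNA. The part of somatic RNA in the differences from spermatogonia was not tested. In these bulk samples, fewer cells of a type and less RNA per cell cannot be told apart.

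Most members were expressed at every stage. In total RNA 52 to 53 of the 55 members reached 1 FPKM in spermatogonia libraries, 50 in the preleptotene library, 46 to 50 in leptotene and 42 to 44 in pachytene libraries. The median member level, over the animals' means, was 8.01 FPKM in spermatogonia, 9.36 in leptotene and 10.1 in pachytene. The members' summed FPKM made up 0.30% to 0.34% of all FPKM in pachytene libraries, above the 0.17% to 0.26% of leptotene and the 0.20% to 0.24% of spermatogonia libraries. In nascent RNA their share was lower in pachytene, at 0.12% to 0.15%, against 0.18% to 0.19% in spermatogonia, while leptotene, at 0.12% to 0.17%, overlapped pachytene. By length-corrected level, Eif1b led in pachytene at 120.1 ± 7.96 FPKM (SD, n = 2 animals). In spermatogonia Eif4b led at 60.7 ± 7.58 FPKM (SD, n = 2 animals). Eif4e1b, the oocyte form of the cap binder, was the only member that stayed too low to be tested in total RNA, at no more than 0.11 FPKM in any library, and was listed at 0 in all 12 nascent libraries.

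**Figure D1:**
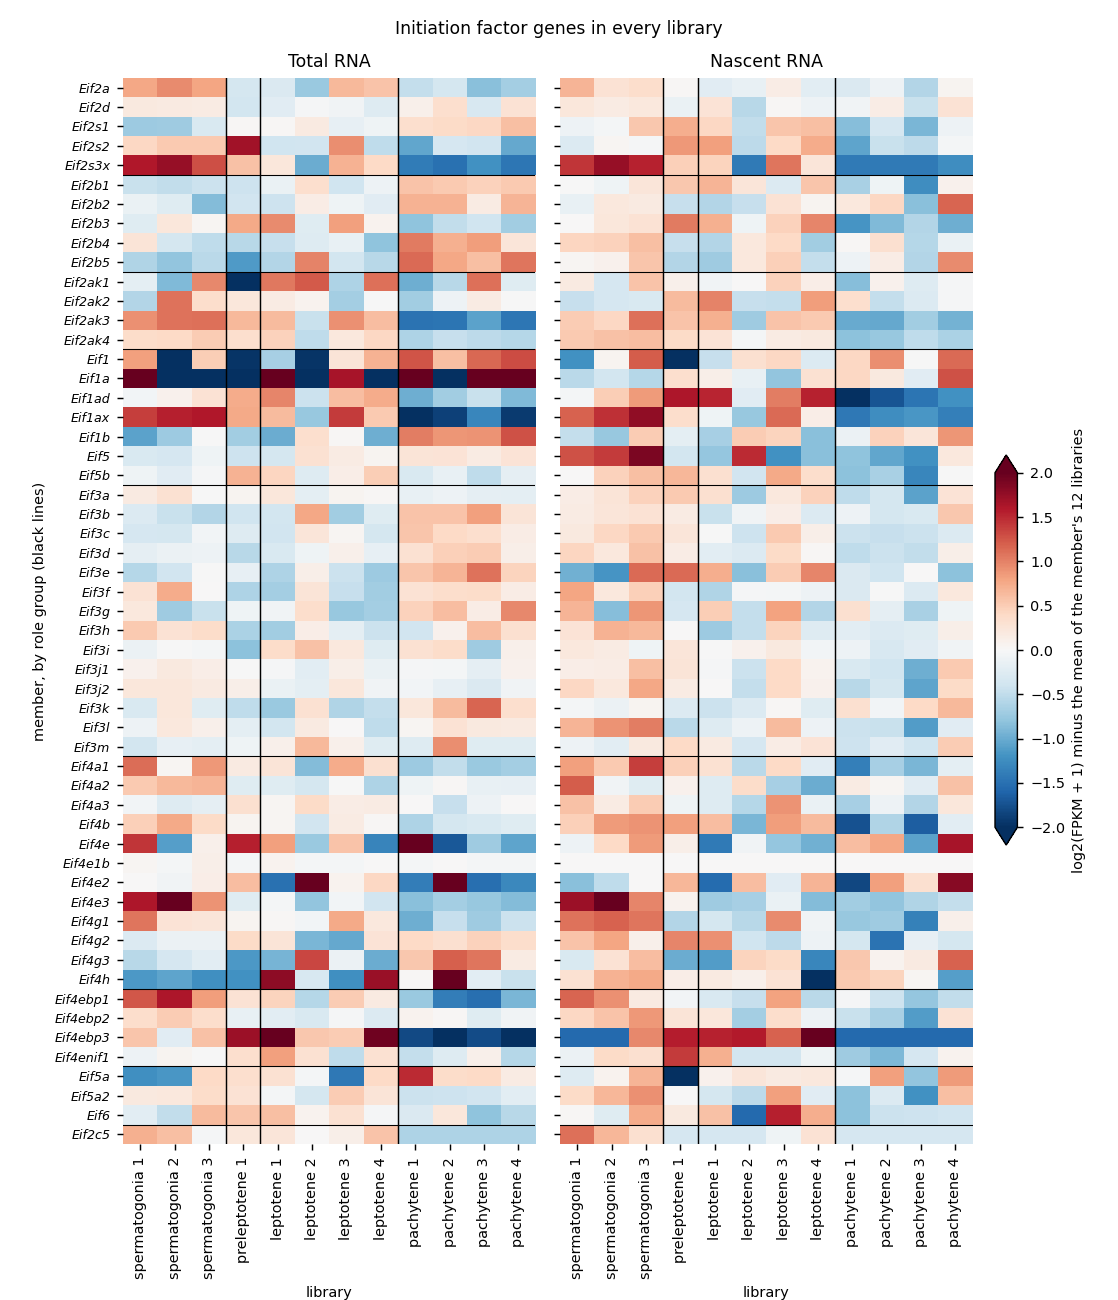
Every member (rows, grouped by role between black lines) in every library (columns, by stage) of total RNA, left, and nascent RNA, right. Colour gives log2(FPKM + 1) minus the mean of that member's 12 libraries in the assay, with red above and blue below that mean. Eif1ax, Eif2s3x and Eif2ak3 are blue in all pachytene columns of both assays, and leptotene library 2 has pachytene-like colours for Eif2b5 and Eif4g3 in total RNA.

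Stage differences were tested with limma on log2(FPKM + 1), with libraries averaged per animal and stage. A member was called where its p, adjusted by Benjamini-Hochberg across every gene tested, was under 0.05. Differences below are on this log2 scale with their standard errors, over 3 leptotene, 2 pachytene and 2 spermatogonia animals, and understate the change of weakly expressed members. In total RNA 54 members were tested. Of these, 5 rose and 9 fell in pachytene against leptotene, where 40.2% of all genes were called (22.4% rose and 17.7% fell). Between pachytene and spermatogonia 5 members rose and 11 fell, where 52.8% of all genes were called (23.1% and 29.7%). Between leptotene and spermatogonia 0 members rose and 1 fell, where 9.81% were called (0.286% and 9.52%), and 0 rose and 5 fell at an unadjusted p under 0.05. The members' own shares of calls were 25.9%, 29.6% and 1.85%, each below that of all genes, and the difference in shares was not tested. Their median differences were -0.01, -0.21 and -0.08 in these 3 comparisons, against -0.07, -0.14 and -0.07 for all genes. Leaving out leptotene library 2 raised the pachytene against leptotene count to 24 (11 rose and 13 fell, with 53.5% of all genes called). That count was 0 without leptotene library 1, which leaves library 2 alone for its animal, and 8 without leptotene library 4. The pachytene against spermatogonia count was 9 without spermatogonia library 3. The leptotene against spermatogonia count was 2 without leptotene library 2 (12.2% of all genes), 4 without leptotene library 3 and 0 without leptotene library 4. All 14 members called in pachytene against leptotene stayed called in the same direction without leptotene library 2, as did the 1 called in leptotene against spermatogonia. Beside counts without any other single library, here and in nascent RNA below, the share of all genes is not given. Those counts do not tell a change of the members from one of all genes.

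In nascent RNA 50 members were tested, and only falls were called. With scaling to the spike-ins 0 members were called in any of the 3 nascent comparisons, where 0.0% of all genes were called and 1 member fell in each at an unadjusted p under 0.05. The summed spike-in FPKM ran from 19056 to 618032 over nascent libraries, and from 55214 to 618032 within pachytene. This scaling thus put a wide spread within stages, and its lack of calls does not show that the falls are absent. The other counts in this paragraph are without it. Against spermatogonia 12 members fell in pachytene, where 43.5% of all genes were called (15.6% rose and 27.9% fell), and 2 fell in leptotene, where 10.6% were called (0.696% and 9.9%). Against leptotene 8 fell in pachytene, where 31.2% were called (15.8% and 15.4%). The median member difference was -0.72 in pachytene against spermatogonia (all genes -0.39), -0.36 in leptotene against spermatogonia (-0.08) and -0.39 in pachytene against leptotene (-0.27). Without leptotene library 2 the pachytene against leptotene count was 13, of which 12 fell, with 39.7% of all genes called. It was 2 without leptotene library 1, which leaves library 2 alone for its animal, and 5 without leptotene library 4. The leptotene against spermatogonia count was 1 without leptotene library 1, 7 without leptotene library 3 and 2 without leptotene library 2 (11.1% of all genes). The pachytene against spermatogonia count was 5 without spermatogonia library 3.

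Some animals gave cells of 2 stages, and a fit with animal as a block left 1 residual degree of freedom. In total RNA it called 6 members in pachytene against leptotene (1 rose and 5 fell, with 22.9% of all genes called), 8 in pachytene against spermatogonia (1 and 7, with 31.7%) and 3 in leptotene against spermatogonia (1 and 2, with 11.2%). In nascent RNA it called 3 (19.7% of all genes), 4 (31.7%) and 7 (20.0%) in these comparisons, and 2 of the 7 rose. The falls of Eif1ax, Eif2s3x, Eif2ak3, Eif4ebp1 and Eif4e3 in pachytene against spermatogonia in total RNA were called with the block too, and the calls of all other members in that comparison were lost. The 3 members called there only with the block were Eif4h, Eif4e and Eif2s2, all of which varied widely between libraries of 1 stage.

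With libraries scaled to a common median, 3 members rose and 11 fell in pachytene against leptotene and 2 rose and 15 fell against spermatogonia in total RNA, with medians of all genes at -0.20 and -0.31 and with 39.6% and 52.1% of all genes called. With scaling to the spike-ins, which were added to the extracted RNA, 18 rose and 5 fell against leptotene and 13 rose and 7 fell against spermatogonia, with medians of all genes at 0.57 and 0.29 and with 47.6% and 55.5% of all genes called.

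Among the carriers of the initiator tRNA, 1 subunit of eIF2 rose and another fell. Eif2s1 encodes the alpha subunit, which the eIF2 kinases phosphorylate, and lies on mm10 at chromosome 12, 78861819 to 78887010. In total RNA Eif2s1 had 11.5, 11.6 and 15.8 FPKM in spermatogonia, 20.0 in preleptotene, 19.9, 22.4, 17.5 and 18.5 in leptotene and 25.1, 26.0, 26.5 and 30.5 in pachytene libraries. All pachytene libraries lay above every other library. The difference was 0.95 ± 0.34 (adjusted p 0.0444) for pachytene against spermatogonia. The call was lost without spermatogonia library 3 (1.16), pachytene library 4 (0.89), with the animal block (log2 difference 1.18) and with libraries scaled to a common median (log2 difference 0.69). Nascent Eif2s1 went the other way in its values, with 5.17, 7.81, 4.87 and 9.40 FPKM in pachytene against 9.36, 9.86 and 15.1 FPKM in spermatogonia, a difference of -0.78 ± 0.48 (adjusted p 0.214) that was not called. Eif2s3x, the X-linked gamma subunit that binds GTP and the tRNA (chromosome X, 94188707 to 94212862), had 7.51, 8.41 and 5.88 FPKM in spermatogonia, 3.22 in preleptotene, 2.29, 0.417, 3.58 and 2.73 in leptotene and 0.0663, 0, 0.218 and 0.0371 in pachytene libraries in total RNA. Its pachytene libraries were all near 0, below every leptotene and spermatogonia library, and leptotene library 2 was the lowest of its stage. It fell by 2.86 ± 0.40 in pachytene against spermatogonia (adjusted p 0.00114) and by 1.63 ± 0.37 against leptotene (adjusted p 0.00923).

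In nascent RNA Eif2s3x was listed at 0 in 3 of 4 pachytene libraries and at 0.129 FPKM in the other, against 6.20, 7.93 and 6.76 FPKM in spermatogonia, and differed by -2.94 ± 0.50 (adjusted p 0.00095). Against leptotene the difference was -1.65 ± 0.46 (adjusted p 0.0192). The pachytene against leptotene calls of Eif2s3x were lost without leptotene library 1 (-1.42) in total RNA and without leptotene library 1 (-1.34) in nascent RNA. Both stayed called without leptotene library 2, at -1.83 and -1.96. Without that library, Eif2s3x also fell in leptotene against spermatogonia in total RNA (-1.03). Of its 50-base stretches, 34.6% also occur in transcripts of 2 pseudogenes, so its reads could be shared with them. Eif2a, which encodes a factor unrelated to eIF2 that can also deliver initiator tRNA, had 0.920, 1.09, 0.491 and 0.659 FPKM in pachytene against 3.57, 4.11 and 3.58 FPKM in spermatogonia. These groups do not overlap, and the difference was -1.41 ± 0.42 (adjusted p 0.0198), lost without spermatogonia library 3 (-1.44) and with the block (-1.96). The beta subunit gene Eif2s2 and Eif2d, another tRNA delivery factor, were not called in total RNA.

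The X chromosome is known to be transcriptionally silenced in pachytene spermatocytes. Eif2s3x, Eif1ax and Eif2c5 are the X-linked members, and 512 of 657 tested X-linked genes (77.9%) fell in total RNA in pachytene against spermatogonia, and 396 of 657 (60.3%) against leptotene. In nascent RNA 459 of 592 fell in pachytene against spermatogonia. Eif1ax, one of the genes for eIF1A, which keeps the scanning small subunit open (chromosome X, 159372178 to 159389928), had 9.33, 10.7 and 11.1 FPKM in spermatogonia, 5.73 in preleptotene, 5.15, 1.35, 9.48 and 4.72 in leptotene and 0, 0.0854, 0.603 and 0.0536 in pachytene libraries in total RNA. Every pachytene library was below every leptotene and spermatogonia library. The difference was -3.31 ± 0.47 (adjusted p 0.00115) for pachytene against spermatogonia and -2.39 ± 0.42 (adjusted p 0.0041) for pachytene against leptotene. Over the alternatives run, the difference from spermatogonia was -5.65 to -3.14 and always called. Nascent Eif1ax had 0.0627, 0.211, 0.270 and 0.112 FPKM in pachytene, against 1.70, 0.687, 5.23 and 2.14 in leptotene and 5.49, 6.89 and 8.76 in spermatogonia. The pachytene libraries again lay below all others, with differences of -2.85 ± 0.51 (adjusted p 0.00127) against spermatogonia and -1.58 ± 0.47 (adjusted p 0.026) against leptotene. The calls against leptotene were lost without leptotene library 1 (-2.16) in total RNA and without leptotene library 1 (-1.47) in nascent RNA, and kept without leptotene library 2, at -2.62 and -1.69. Eif2c5 was listed at 0 in all pachytene libraries of both assays. In total RNA it had 0.803, 0.548, 0.656 and 1.28 FPKM in leptotene and 1.504, 1.33 and 0.507 FPKM in spermatogonia, and its difference was -0.89 ± 0.27 (adjusted p 0.0284) against leptotene and -0.93 ± 0.29 (adjusted p 0.0253) against spermatogonia. The first was lost without leptotene library 1 (-0.85), leptotene library 4 (-0.73), and both with the animal block, at -0.73 and -0.69, while without leptotene library 2 the difference from leptotene was -0.92 and called.

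The 5 subunits of eIF2B, the exchange factor that recharges eIF2, did not move together. In pachytene against spermatogonia 3 of 5 rose in total RNA and 0 fell, with a median difference of 0.98, against -0.14 for all genes. Of all genes 23.1% rose and 29.7% fell there. Eif2b5, the catalytic epsilon subunit (chromosome 16, 20498817 to 20509323), had 8.10, 6.99 and 8.48 FPKM in spermatogonia, 5.30 in preleptotene, 8.22, 26.3, 9.68 and 8.35 in leptotene and 29.4, 22.7, 20.0 and 28.2 in pachytene libraries. The pachytene libraries and leptotene library 2 stood well above all the others. The difference was 1.52 ± 0.37 (adjusted p 0.00836) against spermatogonia and 1.14 ± 0.34 (adjusted p 0.0265) against leptotene. Without leptotene library 2 the difference from leptotene was 1.40. Eif2b1, the alpha subunit that senses phosphorylated eIF2, had 15.7, 15.01, 14.5 and 14.99 FPKM in pachytene against 7.20, 6.95 and 7.32 FPKM in spermatogonia. These libraries do not overlap, and the difference was 0.97 ± 0.33 (adjusted p 0.0372). Eif2b2, the beta subunit, had 11.7, 11.8, 7.80 and 11.6 FPKM in pachytene against 6.18, 5.68 and 3.34 FPKM in spermatogonia. Each pachytene library was higher, and the difference was 1.08 ± 0.35 (adjusted p 0.0304).

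Eif2b4, the delta subunit, rose against leptotene, with 11.5, 8.93, 9.79 and 6.17 FPKM in pachytene and 3.42, 4.06, 4.45 and 2.47 FPKM in leptotene. The groups do not overlap, and the difference was 1.15 ± 0.34 (adjusted p 0.0272). Eif2b3, the gamma subunit that partners epsilon, went down instead, with 0.255, 0.567, 0.677 and 0.352 FPKM in pachytene and 3.25, 0.851, 2.89 and 1.30 FPKM in leptotene. The groups do not overlap, with leptotene library 2 nearest to pachytene, and the difference was -1.01 ± 0.29 (adjusted p 0.0235). Nascent Eif2b3 had 0.0740, 0.311, 0.608 and 0.237 FPKM in pachytene, against 2.95, 1.28, 2.33 and 3.77 in leptotene and 1.45, 1.82 and 1.97 in spermatogonia, and fell by 1.49 against leptotene (adjusted p 0.00991) and by 1.11 against spermatogonia (adjusted p 0.0402). The calls against leptotene without leptotene library 2 stood at 1.18 for Eif2b4 and -1.21 for Eif2b3 in total RNA and at -1.62 for nascent Eif2b3, and Eif2b1 (0.73) and Eif2b2 (0.80) rose in total RNA too. None of the other 4 subunits was called in nascent RNA on the FPKM scale. The eIF2B calls depended on single libraries. In pachytene against leptotene the total RNA call of Eif2b5 was lost without leptotene library 1 (0.88), leptotene library 3 (1.08), leptotene library 4 (0.98), pachytene library 1 (1.01), that of Eif2b4 without leptotene library 1 (1.11), leptotene library 4 (0.96), pachytene library 2 (1.03) and that of Eif2b3 without leptotene library 1 (-0.81). In pachytene against spermatogonia Eif2b1 was lost without spermatogonia library 3 (0.99) and Eif2b2 without spermatogonia library 3 (0.74), pachytene library 1 (0.95). The nascent call of Eif2b3 against leptotene was lost without leptotene library 1 (-1.35), and that against spermatogonia without spermatogonia library 2 (-1.06), spermatogonia library 3 (-1.02), pachytene library 1 (-0.96), pachytene library 2 (-1.13).

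All 5 called rises of eIF2B in total RNA and the falls of Eif2b3 in both assays were lost with the animal block, where the differences from spermatogonia were 1.74 for Eif2b5, 1.36 for Eif2b1 and 1.10 for Eif2b2. Against leptotene they were 1.30 for Eif2b5, 0.63 for Eif2b4 and -1.42 for Eif2b3, which had -1.39 in nascent RNA. With libraries scaled to a common median, Eif2b5 stayed called against spermatogonia (1.26), while Eif2b1 (0.72) and Eif2b2 (0.84) did not, nor did Eif2b4 (0.90) and Eif2b5 (0.87) against leptotene. 

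Of the 4 kinases that phosphorylate eIF2 under stress, 2 fell in pachytene in both assays and none rose. Against spermatogonia 29.7% of all genes fell in total RNA and 27.9% in nascent RNA, and against leptotene 17.7% and 15.4% did. Eif2ak3 encodes PERK, the kinase of the unfolded protein response (chromosome 6, 70844515 to 70905245). In total RNA it had 4.53, 5.20 and 5.26 FPKM in spermatogonia, 3.58 in preleptotene, 3.52, 1.16, 4.51 and 3.48 in leptotene and 0.0559, 0.0610, 0.394 and 0.0703 in pachytene libraries. Pachytene libraries were below all others, and leptotene library 2 was the lowest of its stage. The difference was -2.41 ± 0.35 (adjusted p 0.00122) against spermatogonia and -1.90 ± 0.32 (adjusted p 0.0036) against leptotene. In nascent RNA Eif2ak3 fell by 1.70 against spermatogonia (adjusted p 0.00553) and by 1.28 against leptotene (adjusted p 0.0224). Eif2ak4, the amino acid sensor GCN2, had 0.395, 0.544, 0.478 and 0.430 FPKM in pachytene, against 1.95, 0.497, 1.46 and 1.83 in leptotene and 1.75, 1.82 and 2.02 in spermatogonia. Leptotene library 2 lay within the pachytene range, while the spermatogonia libraries were all higher, and the difference was -0.99 ± 0.28 (adjusted p 0.0154) against spermatogonia and -0.74 ± 0.25 (adjusted p 0.0439) against leptotene.

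Nascent Eif2ak4 fell by 1.27 against spermatogonia (adjusted p 0.00668) and by 0.84 against leptotene (adjusted p 0.0439). With the animal block the calls of Eif2ak4 were lost (-0.98 in total and -1.29 in nascent RNA, pachytene against spermatogonia), and that of Eif2ak3 was lost in nascent RNA (-2.07). Each difference from leptotene stayed called without leptotene library 2, at -2.08 for Eif2ak3 and -0.91 for Eif2ak4 in total RNA and at -1.52 and -0.89 in nascent RNA. Single libraries also decided several of these calls. Eif2ak4 was not called in total RNA without spermatogonia library 3 (-0.93) against spermatogonia and without leptotene library 1 (-0.58), leptotene library 3 (-0.74), leptotene library 4 (-0.64), pachytene library 1 (-0.72), pachytene library 4 (-0.72) against leptotene. Eif2ak3 was not called against leptotene without leptotene library 1 (-1.73) in total RNA and without leptotene library 1 (-1.04), leptotene library 4 (-1.20) in nascent RNA, nor against spermatogonia in nascent RNA without spermatogonia library 3 (-1.38). In nascent RNA Eif2ak4 was not called against leptotene without leptotene library 1 (-0.79), leptotene library 4 (-0.82), pachytene library 1 (-0.76), pachytene library 2 (-0.81). Eif2ak1, the haem-regulated kinase, and Eif2ak2, the double-stranded RNA kinase PKR, were not called in either assay. Eif2ak1 in total RNA had 3.24, 1.64 and 8.47 FPKM in spermatogonia, 0.227 in preleptotene, 9.05, 10.4, 2.17 and 9.48 in leptotene and 1.47, 2.30, 9.42 and 3.09 in pachytene libraries, with a low and a high library within most stages. Eif2ak2 was low throughout, at no more than 2.75 FPKM in total RNA and 1.97 FPKM in nascent RNA.

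Among the members grouped under start codon choice and subunit joining, Eif1b rose and Eif1ad fell in total RNA, and Eif5 fell in nascent RNA. Eif1b, a close relative of the start codon fidelity factor Eif1, lies at chromosome 9, 120492232 to 120495330. In total RNA it had 27.4, 35.1 and 58.0 FPKM in spermatogonia, 35.9 in preleptotene, 29.0, 74.3, 59.7 and 29.3 in leptotene and 119.5, 109, 109 and 142 in pachytene libraries. The pachytene libraries were all above the rest, and leptotene library 2 was the highest of the others. The difference was 1.47 ± 0.46 (adjusted p 0.0242) against spermatogonia and 1.44 ± 0.42 (adjusted p 0.0245) against leptotene, and 1.66 without leptotene library 2. The call against leptotene was lost without leptotene library 1 (1.22), leptotene library 4 (1.17), and both calls were lost with the animal block, at 0.85 and 1.05. In nascent RNA Eif1b had 17.3, 26.3, 22.3 and 35.4 FPKM in pachytene against 13.1, 10.7 and 26.9 FPKM in spermatogonia. These overlap, and the difference was 0.43 ± 0.57 (adjusted p 0.584). Eif1ad, which encodes a protein with an eIF1A domain, had 20.6, 23.0 and 26.5 FPKM in spermatogonia, 36.9 in preleptotene, 43.6, 15.8, 33.5 and 36.7 in leptotene and 10.5, 13.0, 15.6 and 11.2 in pachytene libraries in total RNA. Pachytene libraries were lower than every leptotene library, though library 3 came within 1 FPKM of leptotene library 2, and the difference was -1.29 ± 0.32 (adjusted p 0.0131).

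Nascent Eif1ad had 2.26, 4.14, 5.21 and 6.33 FPKM in pachytene, against 47.96, 13.6, 33.6 and 48.3 in leptotene and 15.5, 23.1 and 29.8 in spermatogonia. All pachytene libraries were below all others, with differences of -2.76 ± 0.45 (adjusted p 0.00129) against leptotene and -2.24 ± 0.49 (adjusted p 0.00367) against spermatogonia. Leaving out leptotene library 2, the differences from leptotene were -1.53 in total and -3.06 in nascent RNA, both called. In total RNA the fall of Eif1ad against leptotene was lost without leptotene library 1 (-1.06), and with the animal block it was -1.40 in total and -2.49 in nascent RNA, called in neither, as was the nascent difference from spermatogonia (-1.94). Eif1ad overlaps Banf1 on the opposite strand. Eif5, which triggers GTP hydrolysis on eIF2 at the start codon, was not called in total RNA, with 16.1, 16.3, 15.1 and 16.2 FPKM in pachytene, 10.2, 16.6, 15.1 and 13.9 in leptotene and 10.6, 10.3 and 12.5 in spermatogonia. In nascent RNA it had 5.16, 4.27, 3.65 and 11.5 FPKM in pachytene and 5.34, 29.4, 3.66 and 5.03 FPKM in leptotene, against 25.1, 27.5 and 38.8 FPKM in spermatogonia. Only leptotene library 2 overlapped the spermatogonia libraries. Nascent Eif5 fell by 2.32 in pachytene (adjusted p 0.00657) and by 2.17 in leptotene (adjusted p 0.0192) against spermatogonia.

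The nascent fall of Eif5 in leptotene was -2.55 without leptotene library 2, and was not called without spermatogonia library 3 (-1.90), leptotene library 1 (-1.79). The fall in pachytene was not called without spermatogonia library 3 (-2.05) or with the animal block (-1.04). Eif1a, an autosomal gene for eIF1A, was erratic in total RNA, at 30.4, 0.111 and 0.00336 FPKM in spermatogonia, 0.0242 in preleptotene, 20.7, 0.0808, 15.5 and 0.0314 in leptotene and 28.8, 0.0747, 27.7 and 32.5 in pachytene libraries. High and near-zero libraries occurred within 1 animal and stage. Nascent Eif1a had no such gaps, with 19.8, 16.9, 12.5 and 36.8 FPKM in pachytene, 16.0, 13.2, 8.06 and 18.3 in leptotene and 9.79, 11.2 and 9.60 in spermatogonia, and differed by 0.92 ± 0.50 (adjusted p 0.162) in pachytene against spermatogonia. Eif1 was not called in total RNA, where its libraries spanned 3.48 to 43.0 FPKM. Eif5b, the GTPase of subunit joining, was not called either.

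Eif1b is 1 of 10 members whose promoter holds the letters CACGTG, the E-box that basic helix-loop-helix factors such as MYC can bind. RefSeq windows of 300 bases (GRCm38.p6, 250 before to 50 after each start) were found for 43 of the 55 members, and 23.3% of those members hold a CACGTG against 8.09% of 27025 genes. The E-box reads the same on both strands. The cAMP response element TGACGTCA, also palindromic, was in 0 of the 43 members and in 2.03% of genes. The MYB motif TAACNG, searched on both strands, was in 5 of 43 members (11.6%) and in 25.9% of genes. The member windows had a median GC content of 62.2%, against 52.7% for all genes, and the part of GC content in these shares was not tested. Of members called in total RNA in pachytene against spermatogonia, the E-box was in 1 of 5 that rose, 2 of 8 that fell and 7 of 30 that were not called. The window of Eif1b, which rose, is shown for its E-box (capitals), whose first base lies 24 bases before the start. It spans chr9:120492356-120492655 on the plus strand.
Eif1b: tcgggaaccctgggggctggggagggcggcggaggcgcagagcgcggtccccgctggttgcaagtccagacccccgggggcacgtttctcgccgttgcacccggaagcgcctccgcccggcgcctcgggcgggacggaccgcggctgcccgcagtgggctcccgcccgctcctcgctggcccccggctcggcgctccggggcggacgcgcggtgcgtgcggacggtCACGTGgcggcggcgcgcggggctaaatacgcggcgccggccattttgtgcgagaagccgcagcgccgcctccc

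The 14 eIF3 members encode the subunits of the large scaffold on the small ribosomal subunit. In total RNA 2 of 14 rose and 0 fell in pachytene against leptotene, with a median difference of 0.44, where 22.4% of all genes rose and 17.7% fell. Against spermatogonia limma called 0 of 14 in total RNA, with a median of 0.18 and 3 rises at an unadjusted p under 0.05. Eif3e, a subunit that also binds eIF4G, had 6.86, 7.98 and 10.7 FPKM in spermatogonia, 9.49 in preleptotene, 6.66, 11.7, 7.72 and 6.06 in leptotene and 16.2, 17.7, 23.9 and 15.02 in pachytene libraries in total RNA. Pachytene libraries were above all others, and the difference was 1.16 ± 0.33 (adjusted p 0.0223) against leptotene. Eif3k, a peripheral subunit, had 2.503, 3.63, 5.65 and 2.77 FPKM in pachytene against 0.775, 2.68, 0.968 and 1.14 FPKM in leptotene. Leptotene library 2 lay within the pachytene range, and the difference was 1.02 ± 0.27 (adjusted p 0.017). These calls were lost without leptotene library 1 (1.04), leptotene library 4 (1.03) for Eif3e and without leptotene library 1 (0.85) for Eif3k, and with the block (0.99 and 1.09). Without leptotene library 2 Eif3e (1.28) and Eif3k (1.20) stayed called, and Eif3b (0.99), Eif3f (0.90) and Eif3g (1.05) rose against leptotene as well.

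Eif3c, a core subunit, had 66.1, 59.1, 57.0 and 49.9 FPKM in pachytene against 35.3, 34.9 and 43.2 FPKM in spermatogonia in total RNA. Every pachytene library was higher, yet the difference of 0.56 ± 0.35 (adjusted p 0.208) was not called. In nascent RNA Eif3c had 9.39, 9.19, 9.34 and 10.5 FPKM in pachytene and 14.96, 17.6 and 19.0 FPKM in spermatogonia. Here all pachytene libraries were lower, and the difference of -0.81 ± 0.44 (adjusted p 0.168) was not called either. Eif3l was the 1 eIF3 member called in nascent RNA, with 6.58, 6.47, 3.70 and 7.78 FPKM in pachytene against 15.3, 18.1 and 19.9 FPKM in spermatogonia. The groups do not overlap, and it fell by 1.46 (adjusted p 0.0241), a call lost without spermatogonia library 3 (-1.34), pachytene library 2 (-1.41) and with the block (-2.01). Eif3j1 and Eif3j2, which encode the loosely bound j subunit, stayed between 4.33 and 6.12 FPKM and between 12.9 and 18.8 FPKM in all total RNA libraries. Of the 50-base stretches of Eif3j2, 91.8% occur in other genes' transcripts, mainly those of Eif3j1, so the pair cannot be separated with certainty.

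In the cap-binding complex the scaffold, the helicase and an eIF4E relative fell in pachytene against spermatogonia on the FPKM scale. In pachytene against leptotene Eif4g3 rose in total RNA (1.43) and Eif4e in nascent RNA (1.54) once leptotene library 2 was left out. The deposited 5S-corrected nascent values gave called rises of Eif4e (3.52), Eif4g3 (3.31), Eif4h (2.81) and Eif4a2 (2.14) there. On that scale the median of all genes was 1.89 log2 units higher in pachytene than in leptotene. Of all genes 34.0% were called there, while Eif4a1 (0.85), Eif4b (0.46) and Eif4g1 (1.52) were not. Eif4e3 encodes an atypical cap binder. In total RNA it had 4.90, 7.62 and 2.61 FPKM in spermatogonia, 0.628 in preleptotene, 0.876, 0.113, 0.859 and 0.476 in leptotene and 0.0837, 0.212, 0.137 and 0.0562 in pachytene libraries. All spermatogonia libraries were above all later ones, with no overlap. In both assays Eif4e3 reached 1 FPKM in spermatogonia libraries alone. It therefore entered the tests only through the group where it was high, and its falls from spermatogonia carry that selection. It was the 1 member called in leptotene against spermatogonia, at -1.68 ± 0.32 (adjusted p 0.0113), and it differed by -2.18 ± 0.35 (adjusted p 0.00147) in pachytene. Without leptotene library 4 the difference between leptotene and spermatogonia was -1.63 and not called. In nascent RNA Eif4e3 had 0.131, 0.0609, 0.208 and 0.312 FPKM in pachytene and 0.116, 0.156, 0.668 and 0 FPKM in leptotene, against 4.98, 7.34 and 2.60 FPKM in spermatogonia. The spermatogonia libraries were again the highest, and it fell by 2.03 in leptotene (adjusted p 0.00353) and by 2.10 in pachytene (adjusted p 0.00154). Both falls in leptotene stayed called without leptotene library 2, at -1.56 in total and -2.04 in nascent RNA. The somatic markers were highest in the same spermatogonia libraries, and their part in this fall was not tested.

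Eif4a1, the main helicase of eIF4F, had 35.2, 16.2 and 29.7 FPKM in spermatogonia, 17.96 in preleptotene, 19.1, 8.15, 27.0 and 19.9 in leptotene and 9.16, 10.97, 9.02 and 9.42 in pachytene libraries in total RNA. The pachytene libraries lay below the spermatogonia libraries, and leptotene library 2 was the lowest of all. The difference was -1.38 ± 0.42 (adjusted p 0.0211) against spermatogonia. In nascent RNA it had 2.03, 3.91, 3.12 and 5.79 FPKM in pachytene against 12.7, 10.2 and 19.4 FPKM in spermatogonia, without overlap, and fell by 1.82 (adjusted p 0.0099). Eif4g1, the main scaffold, had 21.0, 11.6 and 11.3 FPKM in spermatogonia, 9.80 in preleptotene, 9.56, 9.02, 16.7 and 11.1 in leptotene and 4.33, 6.60, 5.34 and 6.75 in pachytene libraries in total RNA. All pachytene libraries were below all others, with a difference of -1.10 ± 0.39 (adjusted p 0.0424) against spermatogonia. Nascent Eif4g1 had 5.05, 5.29, 3.02 and 9.95 FPKM in pachytene and 20.8, 22.3 and 20.6 FPKM in spermatogonia. These do not overlap, and it fell by 1.79 (adjusted p 0.0188).

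The calls of the scaffold and helicase were sensitive to libraries. In total RNA Eif4a1 was not called without spermatogonia library 1 (-1.11), spermatogonia library 3 (-1.23), and Eif4g1 not without spermatogonia library 1 (-0.90), spermatogonia library 3 (-1.32), pachytene library 1 (-1.04). In nascent RNA Eif4a1 was not called without spermatogonia library 3 (-1.46) and Eif4g1 not without spermatogonia library 3 (-1.82), pachytene library 2 (-1.59). With the animal block the differences were -2.04 and -1.57 in total RNA and -2.04 and -2.61 in nascent RNA, and none was called. Against leptotene both fell without leptotene library 2, by 1.10 for Eif4a1 and 0.98 for Eif4g1 in total RNA. Of the 50-base stretches of Eif4a1, 28.4% occur in other transcripts, mostly pseudogenes. The promoter windows of the pair are printed because both genes fell and both hold E-boxes (capitals). That of Eif4a1, chr11:69672374-69672673 on the minus strand, has 1 whose first base lies 189 bases before the start. That of Eif4g1, chr16:20672477-20672776 on the plus strand, has 1 beginning 54 bases before the start and 1 at base 16 after it.
Eif4a1: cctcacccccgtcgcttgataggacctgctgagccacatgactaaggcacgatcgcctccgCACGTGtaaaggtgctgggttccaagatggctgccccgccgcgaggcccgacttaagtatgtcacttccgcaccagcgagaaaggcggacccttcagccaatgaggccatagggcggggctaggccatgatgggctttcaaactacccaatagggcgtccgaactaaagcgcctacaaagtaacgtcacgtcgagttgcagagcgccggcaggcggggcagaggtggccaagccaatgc
Eif4g1: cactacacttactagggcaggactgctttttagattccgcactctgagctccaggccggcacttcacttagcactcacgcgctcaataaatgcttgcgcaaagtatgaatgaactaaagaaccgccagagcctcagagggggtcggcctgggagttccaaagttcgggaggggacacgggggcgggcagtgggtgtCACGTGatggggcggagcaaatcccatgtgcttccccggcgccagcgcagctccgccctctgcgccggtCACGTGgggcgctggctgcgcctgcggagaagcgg

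The other scaffold and helicase genes behaved differently in their values. Eif4g3, a scaffold that mouse spermatocytes need to complete meiotic prophase, had 6.99, 8.25 and 9.10 FPKM in spermatogonia, 4.28 in preleptotene, 5.14, 28.7, 9.81 and 4.89 in leptotene and 16.0, 25.8, 23.7 and 12.2 in pachytene libraries in total RNA. Pachytene libraries and leptotene library 2 were above all others. The difference from spermatogonia was 1.08 ± 0.44 (adjusted p 0.0655) and not called, and against leptotene it was called without leptotene library 2 alone (1.43). Eif4g2, which lacks the eIF4E-binding part of the scaffold, had 52.0, 48.7, 54.0 and 49.9 FPKM in pachytene and 32.3, 35.9 and 35.9 FPKM in spermatogonia. The stages do not overlap, but the difference of 0.54 ± 0.45 (adjusted p 0.345) was not called. Eif4a2, the second helicase, had 8.08, 8.84, 7.69 and 7.64 FPKM in pachytene and 12.9, 14.2 and 14.6 FPKM in spermatogonia, without overlap, and its difference of -0.73 ± 0.35 (adjusted p 0.105) was not called. Eif4b, a helicase cofactor, was called in nascent RNA, with 6.56, 15.7, 7.14 and 20.9 FPKM in pachytene against 34.3, 44.6 and 46.4 FPKM in spermatogonia. All pachytene libraries were lower, and it fell by 1.83 against spermatogonia (adjusted p 0.0201) and by 1.49 against leptotene (adjusted p 0.0456).

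The Eif4b fall was not called without spermatogonia library 3 (-1.71) against spermatogonia and without leptotene library 1 (-1.23), leptotene library 3 (-1.29), leptotene library 4 (-1.39), pachytene library 1 (-1.46), pachytene library 2 (-1.39) against leptotene. With the block it was -1.78 and -1.24, not called, and without leptotene library 2 the difference from leptotene was -1.74 and called. Eif4e, the cap binder itself, was erratic in total RNA, at 10.9, 1.06 and 3.71 FPKM in spermatogonia, 11.9 in preleptotene, 6.78, 1.63, 5.52 and 0.773 in leptotene and 18.6, 0.357, 1.70 and 1.13 in pachytene libraries. One pachytene library stood far above the other 3, and the stages overlapped. Nascent Eif4e had 10.95, 12.3, 2.71 and 23.6 FPKM in pachytene, 1.92, 6.48, 3.57 and 3.04 in leptotene and 6.28, 9.29 and 13.2 in spermatogonia, also overlapping. Eif4e2 and Eif4h were as uneven, with 2.34, 37.9, 2.06 and 2.57 FPKM and 4.97, 58.6, 4.07 and 3.33 FPKM in the 4 pachytene libraries of total RNA.

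The inhibitors of eIF4E split. Eif4ebp1, the mTOR-controlled binding protein, had 7.54, 10.03 and 5.47 FPKM in spermatogonia, 3.42 in preleptotene, 3.89, 1.43, 4.15 and 3.07 in leptotene and 1.15, 0.384, 0.273 and 0.909 in pachytene libraries in total RNA. Pachytene libraries were below all others. The difference was -2.27 ± 0.35 (adjusted p 0.00137) against spermatogonia, called in every alternative run (-3.34 to -1.98), and -1.34 ± 0.32 (adjusted p 0.0115) against leptotene, lost without leptotene library 1 (-1.18) and with the block (-1.66), and -1.51 without leptotene library 2. Nascent Eif4ebp1 had 0.685, 0.280, 0 and 0.208 FPKM in pachytene and 2.84, 2.21 and 0.926 FPKM in spermatogonia, a difference of -1.03 ± 0.46 (adjusted p 0.0918), not called. Eif4ebp3 had 7.80, 4.11 and 7.96 FPKM in spermatogonia, 18.6 in preleptotene, 23.2, 7.73, 7.55 and 22.0 in leptotene and 0.715, 0.470, 0.735 and 0.450 in pachytene libraries in total RNA. Its preleptotene library and 2 of 4 leptotene libraries were the highest, leptotene libraries 2 and 3 lay near spermatogonia, and pachytene was lowest. It differed by -3.16 ± 0.43 (adjusted p 0.00312) in pachytene against leptotene and by -2.29 ± 0.47 (adjusted p 0.00404) against spermatogonia.

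In nascent RNA Eif4ebp3 was listed at 0 in all 4 pachytene libraries and in 2 of 3 spermatogonia libraries, and had 7.49, 7.80, 5.62 and 15.1 FPKM in leptotene. It differed by -3.28 ± 0.65 (adjusted p 0.00361) in pachytene against leptotene. Without leptotene library 2 the differences were -3.41 in total and -3.27 in nascent RNA. The total RNA call against leptotene was lost without leptotene library 1 (-2.92), and that against spermatogonia with the block (-1.31). Of its 50-base stretches, 65.5% also occur in AC115631.1, an overlapping gene, so its reads could be shared. Eif4ebp2, the inhibitor best known from brain, was not called, at 25.6, 24.8, 20.4 and 23.3 FPKM in pachytene and 31.4, 35.2 and 31.6 FPKM in spermatogonia in total RNA, without overlap. Eif4enif1, which carries eIF4E into the nucleus and to mRNA granules, was not called.

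Limma called 0 of the 3 eIF5A and eIF6 genes in either assay, and 0 at an unadjusted p under 0.05. Eif5a, the hypusine-carrying factor that relieves stalled ribosomes, had 10.1, 10.7 and 33.3 FPKM in spermatogonia, 32.0 in preleptotene, 31.5, 24.5, 8.68 and 33.6 in leptotene and 72.8, 32.7, 33.6 and 28.2 in pachytene libraries in total RNA. The stages overlapped. Its relative Eif5a2 had 10.6, 10.7, 10.9 and 12.4 FPKM in pachytene and 16.8, 16.9 and 19.1 FPKM in spermatogonia. The pachytene libraries were the lower ones, yet the difference of -0.65 ± 0.36 (adjusted p 0.165) was not called. Eif6, which keeps the ribosomal subunits apart, had 9.80, 14.4, 6.55 and 7.96 FPKM in pachytene and 10.4, 8.37 and 19.5 FPKM in spermatogonia, which overlap.

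Members whose libraries do not overlap between stages were also counted. In total RNA 14 members were higher and 20 lower in all pachytene than in all spermatogonia libraries, where 30.5% and 37.9% of all genes were. Against leptotene 8 were higher and 10 lower in pachytene (14.2% and 21.2% of all genes), and in leptotene against spermatogonia 3 were higher and 10 lower (5.22% and 20.3%). In nascent RNA 1 was higher and 22 lower in pachytene than in spermatogonia (18.1% and 35.6% of all genes), 0 and 5 against leptotene (10.9% and 18.7%), and 1 and 13 in leptotene against spermatogonia (5.4% and 19.7%). Without leptotene library 2, 16 were higher and 18 lower in pachytene than in leptotene (31.2% and 34.1% of all genes) and 5 and 12 in leptotene than in spermatogonia (10.5% and 28.0%) in total RNA. In nascent RNA these counts were 1 and 14 (17.6% and 32.8%) and 4 and 16 (11.4% and 23.0%).

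Whether total and nascent RNA differed in their stage change was tested as an interaction over 50 members. The 2 assays come from different animals. In limma 0 members were called in any of the 3 comparisons, where 0.0% of all genes were called in leptotene against spermatogonia, 0.0251% in pachytene against leptotene and 0.0126% in pachytene against spermatogonia. At an unadjusted p under 0.05 there were 11 members in pachytene against spermatogonia, 4 in pachytene against leptotene and 3 in leptotene against spermatogonia. All of the 11 and of the 4 had a higher total than nascent difference. This was not particular to the members. Of 49 tested genes around initiation, listed below, 9 and 2 reached that threshold in these 2 comparisons, again all with a higher total difference. The share of all genes at that threshold is not given here. The 11 were Eif1ad, Eif2b1, Eif2b4, Eif2b5, Eif2s1, Eif3b, Eif3c, Eif3d, Eif3l, Eif4g2 and Eif5, with the smallest p for Eif5, at 2.76 ± 0.67 (adjusted p 0.246). The median member interaction was 0.64 for pachytene against spermatogonia, 0.37 for pachytene against leptotene and 0.23 for leptotene against spermatogonia, where all genes had 0.21, 0.19 and 0.05. By role, the eIF2B median was 1.53 and the eIF3 median 0.93 in pachytene against spermatogonia.

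Calls shared by both assays in the same direction were all falls. Since only falls of members were called in nascent RNA, a shared rise could not occur. The share of all genes called in both assays was not counted. In pachytene against leptotene 7 members were shared, which is 58.3% of the 12 total RNA calls and 87.5% of the 8 nascent calls among members tested in both. These were Eif1ad, Eif1ax, Eif2ak3, Eif2ak4, Eif2b3, Eif2s3x and Eif4ebp3. In pachytene against spermatogonia there were again 7, which is 46.7% of 15 and 58.3% of 12, namely Eif1ax, Eif2ak3, Eif2ak4, Eif2s3x, Eif4a1, Eif4e3 and Eif4g1. In leptotene against spermatogonia Eif4e3, which passed the level filter through spermatogonia alone, was the 1 shared call. These nascent calls are on the FPKM scale. Of the 8 nascent falls against leptotene, that of Eif4ebp3 (-1.96) alone stayed called in the 5S-corrected table. The others were -1.31 for Eif1ad, -0.35 for Eif1ax, -0.52 for Eif2ak3, -0.20 for Eif2ak4, -0.57 for Eif2b3, -0.68 for Eif2s3x and 0.46 for Eif4b there, and none of these was called. Of the 12 nascent falls against spermatogonia 5 stayed called in that table, those of Eif1ax, Eif2ak3, Eif2ak4, Eif2s3x and Eif4e3, and both falls in leptotene against spermatogonia did.

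**Figure D2:**
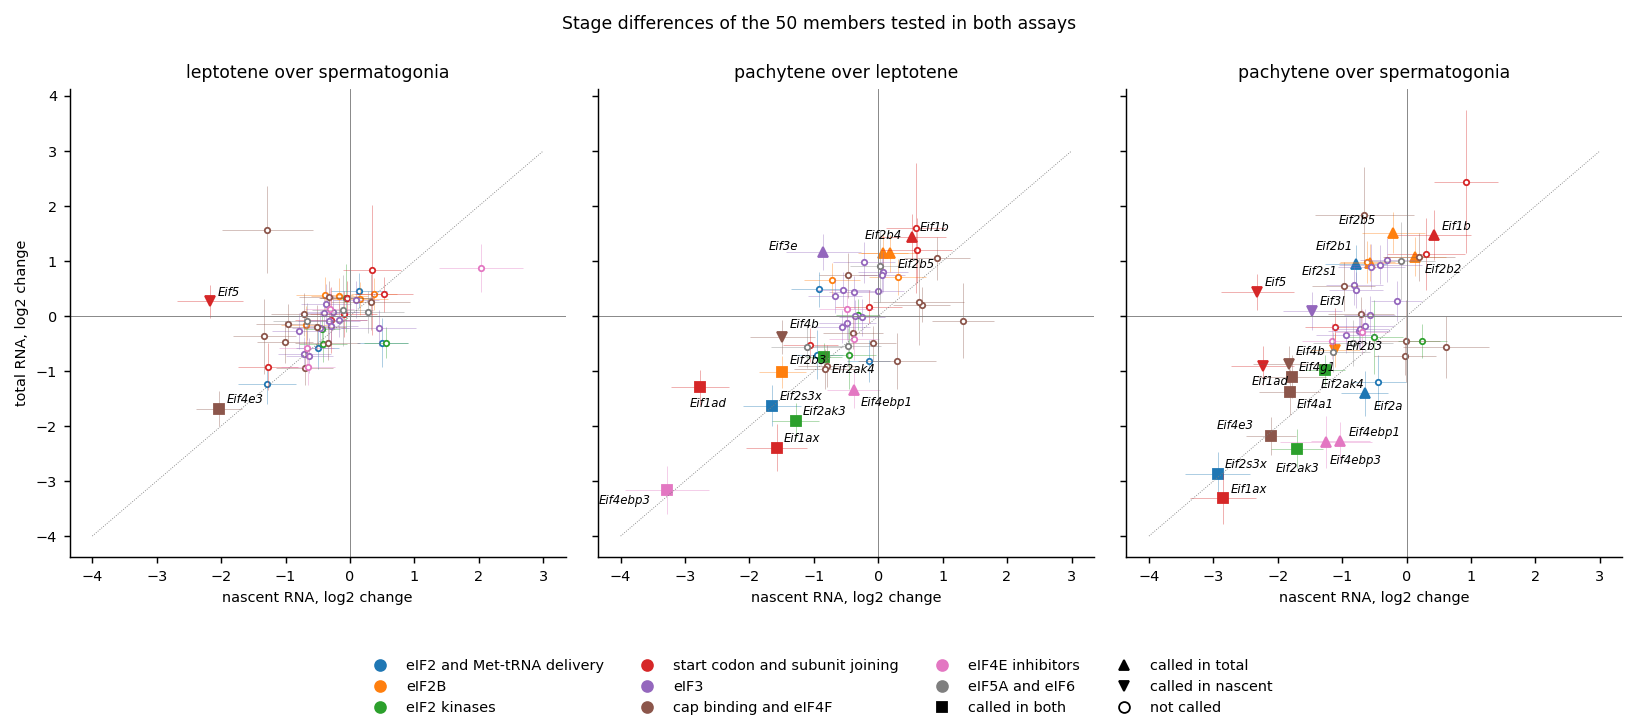
Log2 differences of the 50 members tested in both assays, nascent RNA on the horizontal and total RNA on the vertical axis, 1 panel per comparison. Colours mark role groups, shapes mark in which assay a member was called, bars are standard errors and the dotted line marks equal differences. Squares, called in both, all lie in the lower left, with Eif1ax and Eif2s3x lowest in pachytene over spermatogonia, and the eIF2B rises lie within 1 unit of 0 on the nascent axis.

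The FPKM scale is relative within a library. A further deposited table gives nascent values corrected by 5S RNA for 9 of the nascent libraries, without leptotene libraries 2 and 3 and pachytene library 3. Over 48 members with values above 0 in all 9 libraries, the median log2 value was 4.63, 4.06 and 2.99 in spermatogonia, 1.33 in preleptotene, 1.58 and 1.23 in leptotene and 2.39, 4.40 and 3.82 in pachytene libraries. The leptotene libraries were the lowest of the groups with replicates and did not overlap with the others. The stage means of these medians were 4.79-fold lower in leptotene than in spermatogonia and 3.59-fold higher in pachytene than in leptotene, where the medians of 12367 genes moved by 4.37-fold and 3.70-fold. Pachytene was 1.33-fold lower than spermatogonia, against 1.18-fold for all genes. These values depended on single libraries. Without pachytene library 1 the member median was 1.36-fold higher in pachytene than in spermatogonia and 6.52-fold higher than in leptotene, and without spermatogonia library 3 it was 2.13-fold lower in pachytene and 7.67-fold lower in leptotene than in spermatogonia. On these values limma called 19 members, which all fell, in leptotene against spermatogonia, where 27.8% of all genes were called. In pachytene against leptotene 12 rose and 1 fell (34.0% of all genes called), and in pachytene against spermatogonia 6 fell (41.7%).

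**Figure D3:**
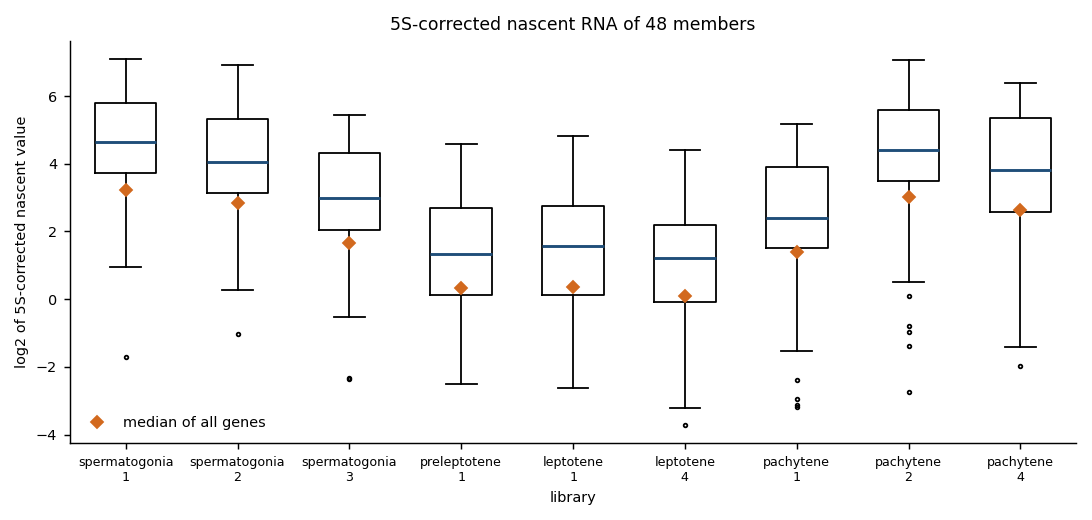
Log2 of the 5S-corrected nascent value of 48 members in the 9 libraries of that table, ordered by stage. Boxes give the quartiles with the median line in blue, whiskers reach to 1.5 times the quartile range, circles are members beyond, and orange diamonds are the medians of all genes. The member medians are 2.99 to 4.63 in spermatogonia, 1.23 to 1.58 in leptotene and 2.39 to 4.40 in pachytene, and the diamonds move with them.

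The single preleptotene library has no replicate and entered no test. In total RNA 44 of 55 members lay within the range of the spermatogonia and leptotene libraries, and in nascent RNA 40 did. That range includes leptotene library 2, which resembles pachytene and can widen it. The share of all genes within the range was not counted. Eif2ak1 in total RNA was more than 1 log2 unit below all of them, at 0.227 FPKM, and Eif1 and Eif5a were in nascent RNA, at 1.35 and 2.56 FPKM. Spread within a stage was large for some members. The range within a stage exceeded 2 log2 units for 8 of 55 members in total RNA and 9 in nascent RNA, with medians over members of 1.08 and 1.41. Between libraries of 1 animal at 1 stage the gap was more than 2 for 7 members in total RNA and 3 in nascent RNA. Of all 55 members, 3 share over 50% and 7 over 20% of their 50-base stretches with other genes' transcripts, and 32 share under 5%.

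A list of 50 tested genes around initiation (elongation and termination factors, partners outside the Eif symbols and signals to initiation) served as a comparison. In total RNA 5 rose and 8 fell in pachytene against leptotene, 5 rose and 12 fell against spermatogonia, and limma called 0 in leptotene against spermatogonia (2 rises and 3 falls at an unadjusted p under 0.05), with median differences of -0.40, -0.25 and -0.06. The shares of all genes called in these comparisons were 40.2%, 52.8% and 9.81%. Among partners, 4 of 18 rose and 5 fell in pachytene against spermatogonia, among signals 1 of 18 rose and 4 fell, and of 8 elongation factors 1 and of 6 termination factors 2 fell. D1Pas1, an autosomal copy of the helicase gene Ddx3x, had 230.0, 233, 212 and 219.5 FPKM in pachytene against 15.6, 9.57 and 18.3 FPKM in spermatogonia. The groups do not overlap, and the difference was 3.81 ± 0.61 (adjusted p 0.0015). Ddx3x, the X-linked helicase gene that assists scanning, had 0.152, 0.139, 1.36 and 0.174 FPKM in pachytene against 31.0, 40.6 and 19.7 FPKM in spermatogonia. The difference was -4.32 ± 0.49 (adjusted p 0.000872), again without overlap.

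Paip1, which links eIF4A to the poly(A)-binding protein, differed by 1.95 ± 0.47 (adjusted p 0.00784) in pachytene against spermatogonia, and Mtor, the kinase that frees eIF4E from its inhibitors, by 1.65 ± 0.40 (adjusted p 0.00806). Ppp1r15a, the subunit that directs dephosphorylation of eIF2, differed by -2.35 ± 0.45 (adjusted p 0.00273). The termination factor gene Gspt2 differed by -2.92 ± 0.43 (adjusted p 0.00125). In pachytene against leptotene Paip2b, an inhibitor of the poly(A)-binding protein, differed by -3.04 ± 0.43 (adjusted p 0.00315) and Mcts2, a reinitiation factor, by 1.19 ± 0.32 (adjusted p 0.019). In nascent RNA 4 of 49 listed genes rose and 17 fell in pachytene against spermatogonia, 2 rose and 10 fell against leptotene, and 0 rose and 2 fell in leptotene against spermatogonia, where 43.5%, 31.2% and 10.6% of all genes were called.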

How the data were processed

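Total and nascent (EU-captured) RNA were measured in 12 libraries each of sorted testis cells, grouped by the labelled cell type. The total and nascent tables hold FPKM per gene, which the authors deposited from STAR 2.5.2a and StringTie (build mm10), as the submitters' processing notes name them. The version of StringTie, the annotation and the strand setting are not given in the sources used here, although the kit keeps strand per the labels, so values of overlapping genes are uncertain. A further table holds a signal per gene that the authors deposited for 9 nascent libraries, the nascent FPKM times 1 constant per library for a 5S RNA correction whose derivation is not given in the sources used here. For the fit, all its values were multiplied by a common 0.534.

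Low FPKM values did not resolve into whole reads: at best 29.1% to 36.0% of those in a total RNA library and 35.3% to 44.2% in a nascent library lay within 0.05 of a whole multiple, so depth is unknown and no counting interval is given. Members and gene lists were chosen with earlier results of these data known. FPKM was averaged over libraries of 1 animal and stage after log2(FPKM + 1). Genes reaching 1 FPKM in 2 or more libraries were fitted with limma 3.58.1 in R 4.3.3 (trend in the prior variance, two-sided, Benjamini-Hochberg over all genes tested, threshold 0.05), and the interaction used genes passing in both assays. The labels do not say that libraries came from separate preparations, so p-values measure the spread between the animals sampled here, 2 or 3 per stage. The 92 spike-in rows were left out. The script was tested on simulated data.

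Animals are named in the labels and pair some stages (2 between spermatogonia and leptotene, 1 between leptotene and pachytene, in each assay). The deviations of such pairs from their stage means correlated at 0.015, 0.080 and 0.084 in total RNA and at -0.119, -0.160 and 0.054 in nascent RNA. The animal block was an alternative.

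Members named with values were a fixed set of well-known factors plus, in each comparison and assay, up to 8 called members with the largest rises and falls, up to 5 each way for the interaction, and up to 3 each way from the list of genes around initiation. Eif4h, Eif4e2, Eif2s2, Eif2d, Eif3b, Eif3f, Eif3g, Eif5b and Eif4enif1, the E-box members, the members at an unadjusted p under 0.05 and those with outlying libraries were chosen after their values were seen. Coordinates are of mm10, matched by symbol to GENCODE M21 for all 55 members. Shared 50-base stretches were counted between its transcripts. Promoter windows came from RefSeq (GRCm38.p6). Alternatives were another pseudocount, no level filter, each library as a sample, 2 scalings, the 5S-corrected table, its 9 libraries, leaving out each library or animal, and, added after seeing the data, leaving out leptotene libraries 2 and 3 together, leptotene library 2 in the counts of members whose libraries do not overlap, and each library in the 5S-corrected medians.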

Additional observations from a re-analysis of the deposited data

Results flagged for a closer look

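In 23 of 215 groups of 4 libraries, 1 library lay apart from the other 3 by more than Dixon's 95% critical value allows. That value flags about 1 in 20 groups of independent, normal values. FPKM need not be normal and some libraries share an animal, so the count cannot be set against that rate. Where the other 3 libraries are at 0, any value above 0 is flagged, as for Eif4e1b in total and Eif2s3x in nascent RNA. Leptotene library 2, which resembles pachytene, accounted for 5 of these. In total RNA it had 26.3 FPKM of Eif2b5 against 8.22 to 9.68 in the other leptotene libraries. In nascent RNA it had 0.363 FPKM of Eif2ak3 against 2.21 to 2.66, 6.92 FPKM of Eif2s1 against 13.8 to 15.8, 12.5 FPKM of Eif4b against 37.8 to 44.2 and 29.4 FPKM of Eif5 against 3.66 to 5.34.

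Pachytene library 2 of total RNA stood apart for 5 members. It had 0.0748 FPKM of Eif1a against 27.7 to 32.5 in the other pachytene libraries, 11.1 of Eif3m against 4.34 to 4.39, 0.0363 of Eif4e1b against 0, 37.9 of Eif4e2 against 2.06 to 2.57 and 58.6 of Eif4h against 3.33 to 4.97. Pachytene library 3 of total RNA had 0.394 FPKM of Eif2ak3 against 0.0559 to 0.0703, 7.80 of Eif2b2 against 11.57 to 11.75 and 15.1 of Eif5 against 16.13 to 16.25. Leptotene library 3 of total RNA had 2.17 FPKM of Eif2ak1 against 9.05 to 10.4 and 8.55 of Eif2s2 against 2.52 to 2.84.

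In nascent RNA pachytene library 4 had 0.129 FPKM of Eif2s3x against 0, 10.5 of Eif3c against 9.19 to 9.39, 5.04 of Eif3d against 2.91 to 3.11 and 3.29 of Eif3h against 2.27 to 2.41. Pachytene library 2 had 7.65 FPKM of Eif4g2 against 17.9 to 20.5, and pachytene library 1 had 1.68 of Eif6 against 2.51 to 2.61. Leptotene library 1 had 1.76 FPKM of Eif3f against 2.90 to 3.10, and leptotene library 4 had 1.86 of Eif4h against 14.8 to 17.0. The causes of these differences were not tested.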

How the results depend on the processing

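Of 53 called member differences, 5 kept their direction and call in every alternative where they were tested. These were the total RNA falls of Eif1ax, Eif2s3x, Eif2ak3, Eif4e3 and Eif4ebp1 in pachytene against spermatogonia. Eif4e3 was tested in 17 alternatives and the others in 18. It did not pass the level filter where spermatogonia libraries 1 and 2, of 1 animal, were left out together. Of 1015 values under alternatives, 748 kept the call, 266 lost it and 1 turned round, that of Eif4b in nascent pachytene against leptotene, at 0.46 in the 5S-corrected table. Counts of called members over the fits that leave out 1 library or animal ranged from 0 to 24 for total pachytene against leptotene, 6 to 20 against spermatogonia and 0 to 4 for leptotene against spermatogonia. In nascent RNA they ranged from 1 to 13, 5 to 14 and 0 to 7 in the same order. A stage left with 1 animal was assumed to vary like the others.

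For leptotene against spermatogonia in nascent RNA (2 called), the 5S-corrected table called 19, its 9 libraries on the FPKM scale 12, the animal block 7, each library as a sample 5, no level filter 1, spike-in scaling 0, and leaving out leptotene libraries 2 and 3 called 13. For pachytene against leptotene (8 called), the 5S-corrected table gave 13, its 9 libraries 16, the animal block 3, no level filter 5, spike-in scaling 0 and leaving out libraries 2 and 3 gave 14. For pachytene against spermatogonia (12 called), the 5S-corrected table gave 6, the animal block 4 and spike-in scaling 0. In total RNA, leptotene against spermatogonia (1 called) gave 9 in the 9 libraries, 3 with the block, 4 with each library as a sample, 2 with spike-in scaling and 9 without libraries 2 and 3. Pachytene against leptotene (14 called) gave 27 in the 9 libraries, 6 with the block, 23 with spike-in scaling and 28 without libraries 2 and 3, and pachytene against spermatogonia (16 called) gave 28 and, with the block, 8. The interaction count was 0 except for 1, Eif5, in the 9 libraries in pachytene against spermatogonia. The subsets have fewer samples and also lack leptotene library 2, which resembles pachytene, and library 3, which in nascent RNA lies nearer to spermatogonia. Shares of all genes called stand above for some of these fits only. The counts here therefore do not tell a change of the members from one of all genes. The cause of the changes was not tested. With 2 or 3 animals a stage, an unknown depth and erratic libraries, a member that was not called may still differ.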
